A study of Mus musculus with 12 samples.

Results

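The average effect of dietary curcumin (CUR) on the liver transcriptome was measured over 12 aged mice, of which 6 received CUR with either of the diets and 6 did not. The members were chosen by diet label only, and these 12 of the series' 12 libraries are 3 from NCD+CUR, 3 from NCD, 3 from HFHSD+CUR and 3 from HFHSD mice. NCD is a normal control diet and HFHSD a high-fat high-sugar diet. All mice were male wild type C57BL/6 animals that had been old when the diets began, and no genetic change separated the groups. By their labels NCD+CUR mouse 3 and NCD mouse 3 were 107 weeks old and the other mice 99 weeks, while the text for the whole series gives lower ages. RNA was taken from 1 lobe of the liver (left lateral), and messenger RNA was selected before stranded library preparation. A single CUR supplement over a single length of feeding was compared with none, so the values carry no order of dose or of time.

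Curcumin is the yellow polyphenol of turmeric. It is absorbed poorly, and the gut wall and the liver reduce it and join it to glucuronic acid or sulfate, which are the reactions of the UGT and SULT enzymes. In cultured cells it is known for effects on the KEAP1-NRF2 system, in which Keap1 holds the transcription factor Nfe2l2 (NRF2) until oxidants or electrophiles release it, and on NF-kappaB, the family of transcription factors behind many inflammatory genes.

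The values are FPKM, fragments scaled to transcript length and to the mapped fragments of the library, for 23997 genes, and the fragments behind each gene are unknown. The 10545 genes averaging 1 FPKM or more were tested. Differences are log2 fold changes of FPKM + 0.1, CUR over no CUR, from a limma model with diet as a covariate, so a difference of 1 is a change by a factor of 2 for all but the lowest genes. The verbs rose and fell are kept for genes at an adjusted p (Benjamini-Hochberg) below 0.1. Pairs of mice are the CUR and no CUR mice of the same diet and replicate number. Neither the labels nor the methods say what the numbers stand for, and nothing in the labels says more than that the libraries of a group are separate mice, so p-values measure the spread between these libraries.

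The libraries were liver by their markers, since all 27 hepatocyte markers in the table passed the filter and summed to 147004 to 171087 FPKM in CUR mice and to 154470 to 167492 FPKM in mice without CUR. Each library held 10192 to 10721 genes of at least 1 FPKM. Correlations between libraries were 0.934 to 0.986, and no pair was identical. HFHSD+CUR mouse 3 had the lowest mean correlation with the others (0.952, against 0.963 to 0.969 for the other 11 libraries). Both of the most deeply sequenced libraries, NCD 3 and HFHSD 3, were from mice without CUR. The ribosomal RNA precursor Rn45s, which has no poly(A) tail, was at 109.5, 949.9 and 1714 FPKM in NCD+CUR mice, against 83.7, 122 and 1461 FPKM in NCD mice, and at 16271, 129 and 3339 FPKM in HFHSD+CUR mice, against 98, 82.9 and 173 FPKM in HFHSD mice. CUR mice and mice without CUR overlapped in Rn45s, and HFHSD+CUR mice 1 and 3 had the highest values of all. Rn45s was higher with CUR in all 6 pairs. Its log2 fold change of 2.64 did not pass in limma (adjusted p = 0.168).

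With CUR, 1863 genes rose (17.7% of those tested) and 2291 fell (21.7%), together 4154 genes (39.4%). At an unadjusted p under 0.05, 2046 were higher and 2447 lower. The effects were moderate, with a median log2 fold change of 0.41 over the risen genes (1.33-fold) and of -0.38 over the fallen genes (0.769-fold), beside -0.02 over all tested genes. The middle 90% of the risen genes lay between 0.22 and 0.85, and of the fallen genes between -0.83 and -0.22. A change by a factor of at least 2 was found for 42 risen and 60 fallen genes. No gene reached an adjusted p under 0.001, the smallest was 0.0022, and 1169 genes were under 0.01.

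The mice carried these calls unevenly. All 6 pairs moved in the direction of the call for 1427 of the 1863 risen and 1852 of the 2291 fallen genes. The calls were made from the same values, so these counts are no separate support. Over all 10545 tested genes, 1781 were higher and 2285 lower in all 6 pairs. CUR values lay above the values without CUR in each diet, with no overlap, for 681 tested genes (6.46%), and below them for 740 (7.02%). Of the fallen genes, HFHSD+CUR mouse 3 had the lowest value of the 6 CUR mice in 1253 (54.7%), and NCD mouse 2 had the lowest value of the 6 mice without CUR in 1496 (65.3%). Of the risen genes, HFHSD+CUR mouse 3 was the highest CUR mouse in 848 (45.5%), and NCD mouse 2 the highest mouse without CUR in 909 (48.8%). In most fallen genes HFHSD+CUR mouse 3 therefore lay farthest from the mice without CUR, and NCD mouse 2 nearest to the CUR mice. Without HFHSD+CUR mouse 3, 1545 genes rose and 1806 fell, and without NCD mouse 2, 2284 rose and 2715 fell. When both CUR libraries highest in Rn45s were left out, 982 genes rose and 1163 fell, and when both deepest libraries were left out, 1220 rose and 1415 fell. Without the mice numbered 3 on HFHSD, which hold 1 library of each of these pairs, 1232 rose and 1394 fell. With log2 mapped reads as a covariate, 1449 rose and 1702 fell, and 2970 of the 4154 calls were made again; with the block for replicate pairs added, 1800 rose and 1915 fell. Array weights, which let libraries that deviate count less, gave the lowest weights to HFHSD+CUR mouse 3 (0.355) and NCD mouse 2 (0.474) and 2309 rises and 2652 falls. The part of Rn45s was not tested beyond leaving libraries out. In 1 more fit the trends of FPKM with the GC content and length of transcripts were taken out of each library, and values from it are called trend-removed and stand beside a called gene where they end its call or bring its value nearer to 0 by over 1.5 times.

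**Figure D1:**
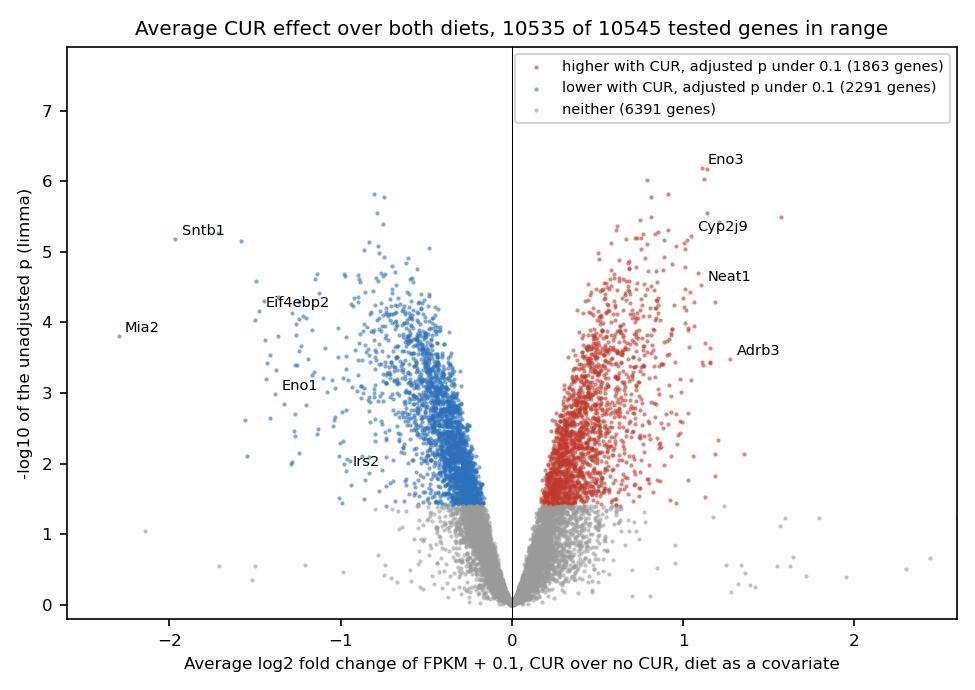
Average log2 fold change of FPKM + 0.1 (CUR over no CUR, x axis) against -log10 of the unadjusted limma p (y axis), with 1 point for each gene; red points rose, blue points fell and grey points did neither at an adjusted p under 0.1, and a few genes outside the x range are not drawn. The 1863 red points and 2291 blue points lie mostly within a log2 fold change of 1 of 0, and Sntb1 and Mia2 lie far to the left of the other labelled genes.

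The average is taken over both diets, and the difference between their effects was tested too. The difference between the CUR effect on HFHSD and that on NCD passed the threshold for no gene (0.0% of 10545 genes in limma), and 145 genes had an unadjusted p under 0.05. The risen genes had a median log2 fold change of 0.50 on HFHSD and 0.32 on NCD, and the fallen genes -0.48 on HFHSD and -0.29 on NCD. Within a diet, with 3 mice a side, 3196 genes passed on HFHSD (30.3%) and none on NCD (0.0%) in limma, and 3800 on HFHSD and 1476 on NCD had an unadjusted p under 0.05. Passing on 1 diet and not on the other is no test of a difference between them. The smallest p of the difference belonged to Icam2, an adhesion molecule of endothelial cells, Rmnd1, a protein needed for mitochondrial translation, the RNA methyltransferase gene Bcdin3d and 1810032O08Rik. Icam2 was at 2.62, 2.01 and 2.42 FPKM in NCD+CUR mice, against 1.97, 2.52 and 1.83 FPKM in NCD mice, and at 2.25, 2.05 and 3.20 FPKM in HFHSD+CUR mice, against 0.891, 1.10 and 1.11 FPKM in HFHSD mice. Its log2 fold change was 1.18 on HFHSD and 0.15 on NCD. Rmnd1 was at 9.90, 11.2 and 10.7 FPKM in NCD+CUR mice, against 14.7, 5.79 and 13.5 FPKM in NCD mice, and at 7.41, 8.07 and 5.72 FPKM in HFHSD+CUR mice, against 17.4, 19.9 and 17.8 FPKM in HFHSD mice. Its log2 fold change was -1.38 on HFHSD and 0.01 on NCD, where NCD mouse 2 was far below the other NCD mice. The average fall of Rmnd1 (-0.68, adjusted p = 0.0899) did not pass with the replicate number as a block, which compares the mice within pairs (adjusted p = 0.169), nor without any 1 of 8 mice (log2 fold changes of -0.68 to -0.54, adjusted p of 0.141 to 0.184), nor when trend-removed (adjusted p = 0.136). Bcdin3d had 0.57 and -0.23 and 1810032O08Rik 1.18 and 0.26 on HFHSD and on NCD, and none of these 4 differences passed the adjustment.

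The leading genes are the 12 largest rises and the 12 largest falls among changed genes that averaged 5 FPKM or more and in which CUR mice and mice without CUR were fully apart on each diet. Their direction and lack of overlap are therefore given by the choice. The sequences before the start sites of 4 of them are shown first, because a shared promoter motif is a simple feature that genes moving together could have and that the choice did not use. They come from RefSeq on GRCm38.p6, run 5′ to 3′ on the strand of the gene and end at the base before the start given by RefSeq. For Prkar2a that start lies inside the GENCODE gene, which begins further upstream. For Eno3 and Eif4ebp2 it lies before the GENCODE gene. For Eno3 the stretch checked after the RefSeq start was not found in a GENCODE transcript. Capitals mark matches, on either strand, to the core of the cAMP response element (TGACG), to that of the antioxidant response element bound by NRF2 (TGACNNNGC) and to the CCAAT box (CCAAT). The first 4 letters of the first pair of motifs are the same, so their matches can overlap.
Eno3 (chr11:70656926-70657175, plus strand): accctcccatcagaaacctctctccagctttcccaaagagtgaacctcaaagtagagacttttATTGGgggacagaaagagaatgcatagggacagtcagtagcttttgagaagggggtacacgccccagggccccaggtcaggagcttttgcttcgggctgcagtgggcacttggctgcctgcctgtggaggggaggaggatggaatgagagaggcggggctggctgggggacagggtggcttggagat
Fam193b (chr13:55571121-55571370, minus strand): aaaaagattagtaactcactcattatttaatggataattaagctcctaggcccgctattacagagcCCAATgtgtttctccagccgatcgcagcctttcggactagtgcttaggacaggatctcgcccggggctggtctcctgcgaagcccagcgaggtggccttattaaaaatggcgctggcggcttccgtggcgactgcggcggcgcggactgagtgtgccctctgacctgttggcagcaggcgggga
Prkar2a (chr9:108691893-108692142, plus strand): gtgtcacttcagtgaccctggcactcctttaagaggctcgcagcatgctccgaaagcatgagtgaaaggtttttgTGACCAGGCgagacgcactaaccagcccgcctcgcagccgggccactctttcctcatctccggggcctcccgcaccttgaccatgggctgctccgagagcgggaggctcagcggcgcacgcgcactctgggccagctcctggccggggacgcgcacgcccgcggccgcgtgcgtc
Eif4ebp2 (chr10:61452670-61452919, minus strand): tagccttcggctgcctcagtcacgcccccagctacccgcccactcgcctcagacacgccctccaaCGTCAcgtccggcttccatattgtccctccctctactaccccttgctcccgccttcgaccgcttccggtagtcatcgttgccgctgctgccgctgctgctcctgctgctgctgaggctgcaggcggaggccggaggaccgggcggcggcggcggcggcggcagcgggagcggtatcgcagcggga

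Both risen genes held a CCAAT box, and of the fallen genes Prkar2a held an antioxidant response element core and Eif4ebp2 a core of the cAMP response element. Over the 250 bases before the start sites of the 8019 tested genes with a RefSeq sequence, the cAMP core was found in 26.6% of the stretches of risen genes, 28.5% of those of fallen genes and 26.6% of all. The antioxidant response element core was found in 11.6%, 11.7% and 11.98% of them, the CCAAT box in 32.5%, 34.1% and 35.1%, the whole cAMP response element TGACGTCA in 2.5%, 2.44% and 2.47%, and the E-box CACGTG of the clock proteins in 7.34%, 8.79% and 8.41%. These shares are descriptions, and a match to letters is not a bound site.

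Gene positions are from GENCODE on GRCm38. Eno3 (chr11:70657202-70662513), the muscle-type enolase of glycolysis, was at 5.81, 6.60 and 7.41 FPKM in NCD+CUR mice, against 2.50, 3.67 and 3.38 FPKM in NCD mice, and at 7.67, 6.40 and 10.5 FPKM in HFHSD+CUR mice, against 3.16, 3.35 and 3.99 FPKM in HFHSD mice. Every CUR mouse was above every mouse without CUR, and its log2 fold change was 1.11 ± 0.13 (SE) with an adjusted p of 0.00220. Eno1 (chr4:150236721-150248879), the widely expressed enolase, went the other way and was at 77.2, 87.8 and 115 FPKM in NCD+CUR mice, against 165, 131 and 292 FPKM in NCD mice, and at 86.9, 91.9 and 29.8 FPKM in HFHSD+CUR mice, against 187, 172 and 287 FPKM in HFHSD mice. Its log2 fold change was -1.38 ± 0.31 (SE) with an adjusted p of 0.00967, and HFHSD+CUR mouse 3 was far below the other CUR mice. Without that mouse the log2 fold change of Eno1 was -1.10. Eno1 has near-identical processed copies in the mouse genome, so its values are uncertain where fragments map to several places.

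Adrb3, the beta3-adrenergic receptor, best known from fat cells, was at 6.29, 11.3 and 6.69 FPKM in NCD+CUR mice, against 3.18, 5.28 and 2.26 FPKM in NCD mice, and at 12.1, 8.56 and 21.4 FPKM in HFHSD+CUR mice, against 4.64, 4.24 and 6.40 FPKM in HFHSD mice. Its log2 fold change was 1.28 ± 0.26 (SE) with an adjusted p of 0.00552, the largest among the leading rises, and the highest value was again that of HFHSD+CUR mouse 3, without which the log2 fold change was 1.11. Neat1 (chr19:5824708-5845478), the long noncoding RNA on which nuclear paraspeckles are built, was at 293, 273 and 264 FPKM in NCD+CUR mice, against 156, 164 and 146 FPKM in NCD mice, and at 438, 215 and 374 FPKM in HFHSD+CUR mice, against 167, 99.3 and 119.9 FPKM in HFHSD mice. All CUR mice were above all mice without CUR, and the log2 fold change was 1.11 ± 0.18 (SE) with an adjusted p of 0.00323. Cyp2j9, a cytochrome P450, was at 12.3, 14.8 and 14.9 FPKM in NCD+CUR mice, against 8.11, 8.19 and 7.11 FPKM in NCD mice, and at 12.4, 13.5 and 20.9 FPKM in HFHSD+CUR mice, against 6.60, 7.76 and 4.83 FPKM in HFHSD mice. All CUR mice were above all mice without CUR (log2 fold change 1.05 ± 0.15 (SE) with an adjusted p of 0.00233).

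Klhdc8b, a kelch repeat protein, had a log2 fold change of 1.19, the zinc finger protein gene Zfp579 1.12, the steroid 21-hydroxylase gene Cyp21a1 1.12, Fam193b 1.02, Ggnbp1 1.02 and the scavenger receptor gene Scarf1 1.01. Cyp21a1 lies beside a closely related pseudogene, and its values are uncertain for that reason. The unnamed transcripts BC018242 (1.09) and 2810008D09Rik (1.01) complete the rises. All 12 rises stayed past the threshold when any 1 mouse was left out.

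The leading falls reached further from 0 than the leading rises. Sntb1 (chr15:55636388-55906949), a syntrophin that links membrane proteins to the dystrophin complex, was at 3.83, 2.57 and 2.48 FPKM in NCD+CUR mice, against 12.9, 5.21 and 9.53 FPKM in NCD mice, and at 1.77, 1.58 and 1.10 FPKM in HFHSD+CUR mice, against 6.91, 6.37 and 11.7 FPKM in HFHSD mice. Its log2 fold change was -1.96 ± 0.26 (SE) with an adjusted p of 0.00233, the largest of all leading genes, and the lowest mouse without CUR, NCD mouse 2, was still above all 6 CUR mice. Eif4ebp2 (chr10:61428491-61452661), a repressor that binds the cap-binding factor eIF4E when it is not phosphorylated, was at 13.7, 9.53 and 11.8 FPKM in NCD+CUR mice, against 29.9, 14.7 and 37.6 FPKM in NCD mice, and at 8.50, 9.52 and 4.99 FPKM in HFHSD+CUR mice, against 23.5, 24.2 and 32.1 FPKM in HFHSD mice. Its log2 fold change was -1.48 ± 0.25 (SE) with an adjusted p of 0.00357. Prkar2a (chr9:108689314-108750436), a regulatory subunit of cAMP-dependent protein kinase, was at 4.24, 3.36 and 3.34 FPKM in NCD+CUR mice, against 10.4, 4.77 and 11 FPKM in NCD mice, and at 3.21, 3.51 and 1.90 FPKM in HFHSD+CUR mice, against 8.33, 8.09 and 13.1 FPKM in HFHSD mice. The groups did not overlap over all 12 mice (log2 fold change -1.45 ± 0.24 (SE) with an adjusted p of 0.00351), and NCD mouse 2 was again the lowest of the mice without CUR.

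Gna12, an alpha subunit of heterotrimeric G proteins, was at 12.9, 12.1 and 8.16 FPKM in NCD+CUR mice, against 29.1, 13.8 and 24.5 FPKM in NCD mice, and at 6.95, 11.3 and 4.18 FPKM in HFHSD+CUR mice, against 19.1, 29.7 and 29.8 FPKM in HFHSD mice (log2 fold change -1.43 ± 0.29 (SE) with an adjusted p of 0.00591). Rab7, the GTPase of late endosomes and lysosomes, was at 57.2, 44.7 and 40.2 FPKM in NCD+CUR mice, against 109, 59.9 and 95.5 FPKM in NCD mice, and at 39.4, 47.4 and 17.4 FPKM in HFHSD+CUR mice, against 87.9, 101 and 119.6 FPKM in HFHSD mice (log2 fold change -1.27 ± 0.26 (SE) with an adjusted p of 0.00600). Klf9, a Kruppel-like transcription factor induced by glucocorticoids and thyroid hormone, was at 8.21, 7.49 and 8.29 FPKM in NCD+CUR mice, against 15.9, 9.60 and 17.3 FPKM in NCD mice, and at 4.64, 7.26 and 4.33 FPKM in HFHSD+CUR mice, against 14.8, 18.1 and 19.8 FPKM in HFHSD mice (log2 fold change -1.25 ± 0.21 (SE) with an adjusted p of 0.00351). In each of these genes NCD mouse 2 was the lowest mouse without CUR and HFHSD+CUR mouse 3 the lowest CUR mouse. The other leading falls were C78339 (-1.50), the cholesterol transfer protein gene Stard4 (-1.37), the CREB-like gene Crebl2 (-1.24), the glucuronosyltransferase gene Ugt1a6a (-1.17) and Hook1 (-1.15), whose protein links cargo to microtubules. All 12 falls stayed past the threshold when any 1 mouse was left out.

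**Figure D2:**
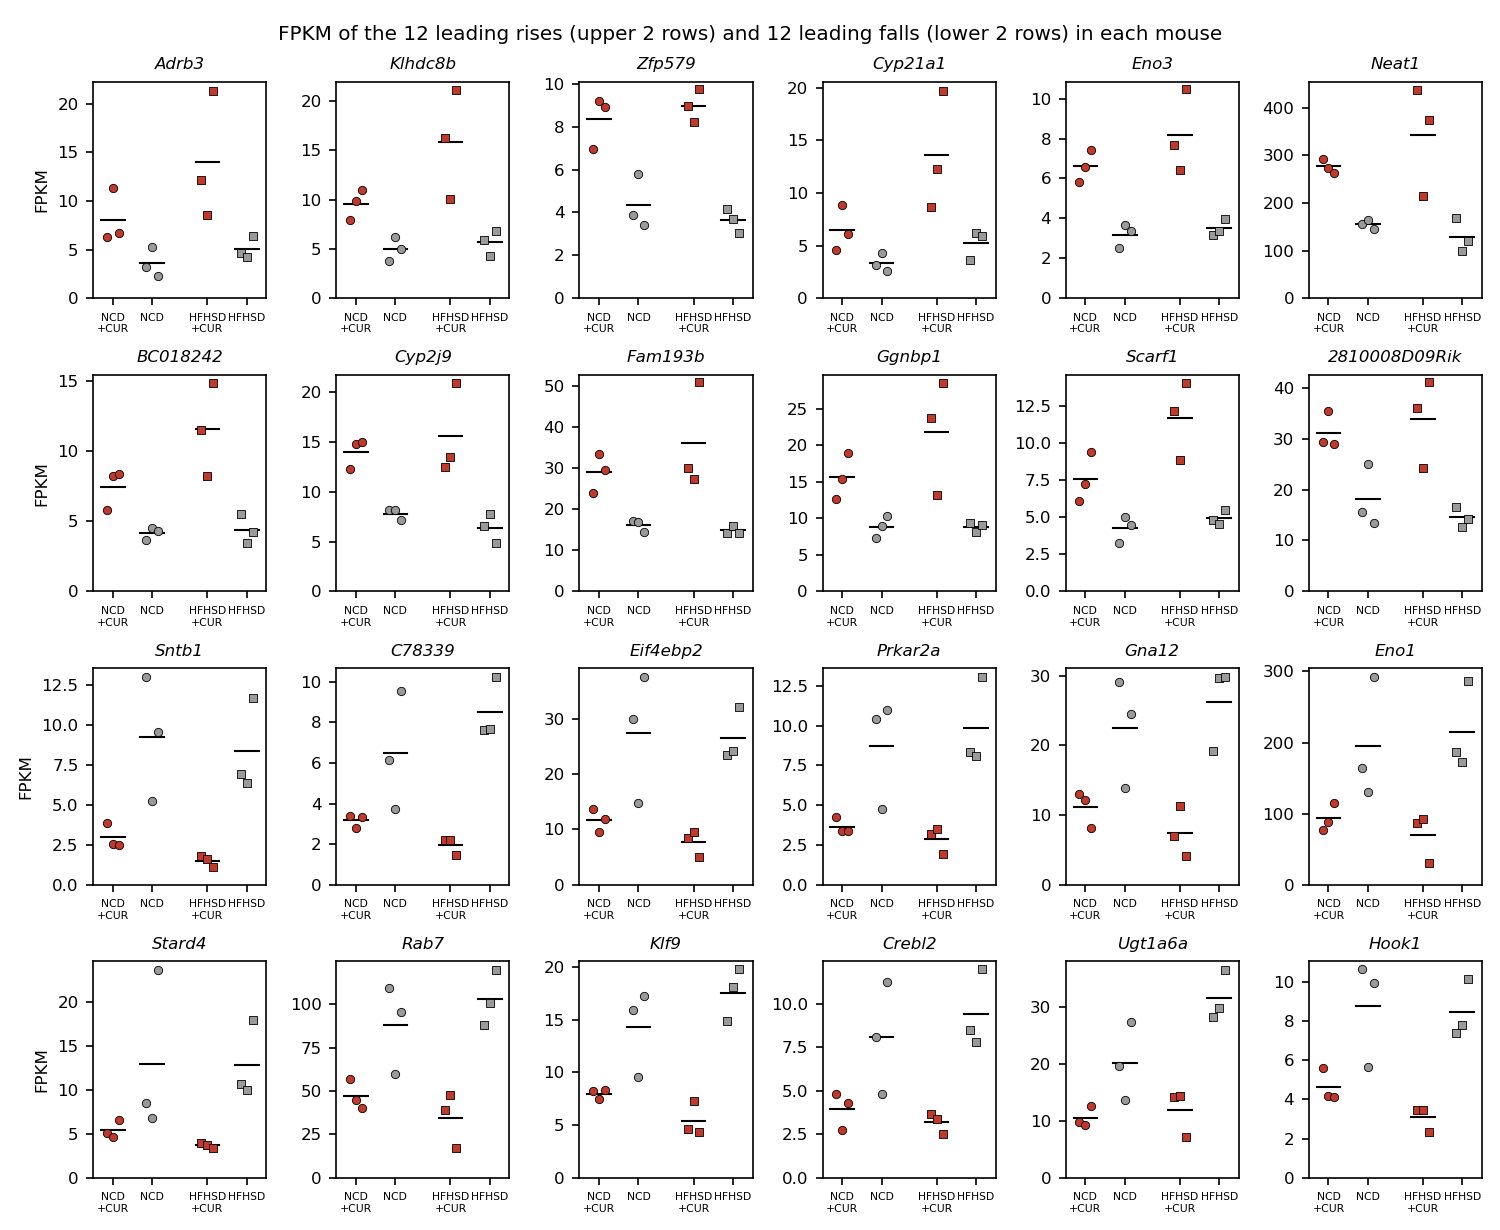
FPKM (y axis, from 0) of the 12 leading rises (upper 2 rows) and the 12 leading falls (lower 2 rows) in each mouse, with CUR mice in red left of the mice without CUR of the same diet in grey; circles are NCD and squares HFHSD, and bars are the means of 3 mice. Within each diet the red and grey points do not overlap, which is how the genes were chosen, and in most falls the lowest grey circle is NCD mouse 2, as for Sntb1 at 5.21 FPKM.

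Of the genes that reduce and conjugate curcumin and pass the products on, 28 of 33 listed were tested, 1 rose and 14 fell, with a median log2 fold change of -0.42, beside 17.7% higher and 21.7% lower over all tested genes. The fallen genes were the UDP-glucuronosyltransferases Ugt1a1, Ugt1a5, Ugt1a6a, Ugt1a9, Ugt2a3, Ugt2b1, Ugt2b34, Ugt3a1 and Ugt3a2, the sulfotransferases Sult1b1 and Sult1d1, the supply genes Ugp2 and Slc35d1, and the export pump gene Abcc2. Ugt1a6a was at 9.83, 9.30 and 12.6 FPKM in NCD+CUR mice, against 19.6, 13.6 and 27.3 FPKM in NCD mice, and at 14.2, 14.4 and 7.23 FPKM in HFHSD+CUR mice, against 28.2, 29.8 and 36.6 FPKM in HFHSD mice. The only riser, Ugt1a6b, was at 150.3, 158 and 185 FPKM in NCD+CUR mice, against 101, 139.8 and 135 FPKM in NCD mice, and at 319, 226 and 303 FPKM in HFHSD+CUR mice, against 175, 162 and 171 FPKM in HFHSD mice. The Ugt1a genes share their last exons, so the values of each depend on how shared fragments were divided. This limit holds for the falls of Ugt1a1, Ugt1a5 and Ugt1a9 too, which are therefore not independent of each other. Ugt1a6a and Ugt1a6b are the near-identical pair, and the rise of 1 beside the fall of the other is uncertain. Ugt3a1, which is not part of that locus, was at 17.9, 18.4 and 20.9 FPKM in NCD+CUR mice, against 31.9, 18.9 and 40.6 FPKM in NCD mice, and at 33.1, 39.2 and 29.9 FPKM in HFHSD+CUR mice, against 51.8, 71.1 and 64.7 FPKM in HFHSD mice (log2 fold change -0.74 ± 0.16 (SE) with an adjusted p of 0.00607). It was lower in all 6 pairs, and NCD mouse 2 lay at the level of the NCD+CUR mice. Ugt2b35 lay just outside the threshold over all genes (log2 fold change -0.55) and the peptidase gene Dpp4 just inside it (-0.25). With the block Ugt2b35 passed (adjusted p = 0.00165), as it did without NCD mouse 2 (0.0711) and without HFHSD+CUR mouse 1 (0.0293), while Dpp4 failed without any 1 of 10 mice (0.107 to 0.202) and when trend-removed (-0.04, adjusted p = 0.793). In the whole list the block gave 3 rises and 21 falls. Over all 10545 tested genes it gave 2569 rises and 3013 falls, and the block counts of the lists stand against these. The shares of 17.7% and 21.7% belong to the fit without the block.

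The NRF2 list of 33 tested genes had 2 that rose, 4 that fell and a median of -0.08, against 4 and 11 with the block. The 2 and 4 are 6.06% and 12.1% of the list, both below the shares over all genes. With the block the share that rose was again below that over all genes, and the share that fell was above it. Nfe2l2 itself was at 29.4, 33.4 and 35.2 FPKM in NCD+CUR mice, against 27.6, 27.2 and 28.6 FPKM in NCD mice, and at 37.6, 40.6 and 50.5 FPKM in HFHSD+CUR mice, against 33.9, 37 and 32 FPKM in HFHSD mice. It was higher in all 6 pairs (log2 fold change 0.27 ± 0.09 (SE) with an adjusted p of 0.0305). Its retaining partner Keap1 did not pass the test (log2 fold change -0.08), nor did Nqo1 (-0.12, adjusted p = 0.639) and Hmox1 (-0.08, adjusted p = 0.823), which are the target genes most often read for NRF2. Mafg, a small partner of NRF2, rose, while the glutathione and thioredoxin genes Gclm, Gsr and Txnrd1 and the carboxylesterase gene Ces1g fell. Txnrd1 was at 23.1 to 38.9 FPKM in CUR mice and 27.5 to 44.2 FPKM in mice without CUR, and the sides overlapped (log2 fold change -0.33 ± 0.11 (SE) with an adjusted p of 0.0441; trend-removed adjusted p = 0.101). Of the 32 NF-kappaB and inflammatory genes tested, 3 rose and 4 fell, with a median of 0.03 that was below 0 in 6 alternatives, and the block gave 7 rises and 6 falls. The shares without the block were 9.38% and 12.5%, also below those over all genes. Nfkbiz, an inducible nuclear regulator of NF-kappaB, was at 5.10, 6.11 and 4.59 FPKM in NCD+CUR mice, against 3.90, 4.65 and 3.60 FPKM in NCD mice, and at 6.69, 6.22 and 8.63 FPKM in HFHSD+CUR mice, against 4.76, 3.85 and 4.11 FPKM in HFHSD mice (log2 fold change 0.55 ± 0.12 (SE) with an adjusted p of 0.00580). Relb and Birc2 (0.38) also rose, and the signaling genes Chuk, Traf6, Irak1 and Irak4 (-0.35) fell.

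Of the 40 tested genes of insulin signaling and clearance, 1 rose (Inppl1) and 15 fell (37.5%, beside 21.7% of all tested genes), with a median of -0.16, and the block gave 4 rises and 20 falls. Over all fits the falls numbered 7 to 20. The list is one of long transcripts, with a median of 4978 bases. Among all genes with the longest transcripts (4758 bases or more), 34.4% fell, a share close to that of the list. The insulin receptor gene Insr was at 13.7, 14.2 and 13.3 FPKM in NCD+CUR mice, against 14.4, 12.8 and 17.1 FPKM in NCD mice, and at 15.1, 14.5 and 16 FPKM in HFHSD+CUR mice, against 14.4, 15.8 and 17.9 FPKM in HFHSD mice. CUR mice and mice without CUR overlapped in both diets, and the log2 fold change of -0.08 did not pass (adjusted p = 0.467). Downstream of it, the adaptor gene Irs2 was at 0.525, 0.668 and 1.28 FPKM in NCD+CUR mice, against 1.10, 0.695 and 2.88 FPKM in NCD mice, and at 0.893, 0.937 and 1.20 FPKM in HFHSD+CUR mice, against 2.17, 1.66 and 4.27 FPKM in HFHSD mice. It was lower in all 6 pairs (log2 fold change -0.97 ± 0.33 (SE) with an adjusted p of 0.0449), though at levels near the filter. Among the fallen genes were the kinase genes Pdpk1 (-0.58), Akt2 and Mtor, the phosphatase gene Ptprf (-0.60), and the transcription factor genes Foxo1 (-0.38; trend-removed -0.23) and Foxo3 (-1.05), which insulin holds out of the nucleus. The list thus holds fallen genes that carry the insulin signal and fallen genes that oppose it.

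Ide, the insulin-degrading enzyme, was at 24.8, 18.5 and 15.6 FPKM in NCD+CUR mice, against 29.4, 18.8 and 21.7 FPKM in NCD mice, and at 24.1, 24.5 and 20.6 FPKM in HFHSD+CUR mice, against 26.5, 29.9 and 28.7 FPKM in HFHSD mice. It was lower with CUR in all 6 pairs, the sides overlapped on NCD, and the log2 fold change of -0.27 ± 0.12 just missed the threshold (adjusted p = 0.109). With the block Ide passed (adjusted p = 0.0142). It also passed in 7 other alternatives and not in the rest, among them the fits without NCD+CUR mouse 1 (0.0348) and without NCD mouse 2 (0.0411). The trend-removed log2 fold change of Ide was -0.08 (adjusted p = 0.653). Ceacam1, which helps the liver take up insulin, fell.

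The cAMP list was split, with 10 risers and 9 fallers among 41 tested genes and a median of -0.10 that turned to 0.05 once the trends with GC content and length were removed. The block gave 11 rises and 15 falls. Of the list 24.4% rose and 22% fell, beside 17.7% and 21.7% of all tested genes. The receptor genes Gcgr, for glucagon, Adra1b and Adrb3 rose, as did Gnas, the stimulatory G protein subunit, the adenylyl cyclase genes Adcy6 and Adcy7, and the coactivator gene Crtc2. The kinase subunit genes Prkacb, Prkar1a and Prkar2a fell, with the inhibitory G protein subunit Gnai3 (-0.58) and the phosphodiesterase genes Pde3b and Pde8a. Akap8, an anchor of the kinase in the nucleus, was at 15.7, 17.8 and 17.7 FPKM in NCD+CUR mice, against 12.1, 12.3 and 12 FPKM in NCD mice, and at 21.2, 19.2 and 29 FPKM in HFHSD+CUR mice, against 14.2, 13.5 and 12.5 FPKM in HFHSD mice. All CUR mice were above all mice without CUR (log2 fold change 0.62 ± 0.10 (SE) with an adjusted p of 0.00313).

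Of 32 genes of gluconeogenesis and glucose output, 2 rose and 11 fell (34.4%, beside 21.7% of all tested genes), with a median of -0.21, and the block gave 6 rises and 17 falls. Slc2a2, the glucose transporter of hepatocytes, was at 80.3, 79.5 and 100.1 FPKM in NCD+CUR mice, against 117, 94.3 and 146 FPKM in NCD mice, and at 90.2, 92.7 and 68.4 FPKM in HFHSD+CUR mice, against 134, 132 and 139 FPKM in HFHSD mice (log2 fold change -0.57 ± 0.12 (SE) with an adjusted p of 0.00515; trend-removed -0.35). Gbe1, the glycogen branching enzyme, was at 21.7, 19.1 and 25.5 FPKM in NCD+CUR mice, against 38.2, 30.2 and 49.4 FPKM in NCD mice, and at 29.2, 24.1 and 12.5 FPKM in HFHSD+CUR mice, against 63.1, 43.1 and 56.4 FPKM in HFHSD mice. Its groups did not overlap (log2 fold change -1.09 ± 0.21 (SE) with an adjusted p of 0.00492). Nr3c1, the glucocorticoid receptor, fell too (-0.50; trend-removed -0.27). The classical hormone-driven genes did not pass. Pck1 was at 521, 1051 and 987 FPKM in NCD+CUR mice, against 609, 1044 and 919 FPKM in NCD mice, and at 1083, 1201 and 1099 FPKM in HFHSD+CUR mice, against 962, 1255 and 1511 FPKM in HFHSD mice (log2 fold change -0.08 ± 0.18 (SE) with an adjusted p of 0.776). NCD+CUR mouse 1 had the lowest value of Pck1 of all mice, and NCD mouse 1 the next lowest. G6pc did not pass either (log2 fold change -0.21 ± 0.41 (SE) with an adjusted p of 0.724).

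Of 38 tested genes of lipogenesis and triglyceride storage, 1 rose and 5 fell (13.2%, beside 21.7% of all tested genes; median -0.11, with the sign turned in 2 alternatives), and the block gave 7 rises and 11 falls. The riser was Mlxipl (ChREBP), the carbohydrate-sensing transcription factor, which was at 100.2, 113 and 119 FPKM in NCD+CUR mice, against 88.1, 70.5 and 77.2 FPKM in NCD mice, and at 118, 121 and 153 FPKM in HFHSD+CUR mice, against 85.5, 95 and 79.9 FPKM in HFHSD mice. All CUR mice were above all mice without CUR (log2 fold change 0.54 ± 0.09 (SE) with an adjusted p of 0.00345). Fasn, the fatty acid synthase, was at 36.8 to 112 FPKM in CUR mice and 34 to 135 FPKM in mice without CUR, a wide spread on both sides, and did not pass (log2 fold change -0.22 ± 0.34). Apob (-0.60; trend-removed -0.39) and Mttp (-0.40; -0.25), with which the liver builds very low density lipoprotein, fell. Of 43 tested genes of fatty acid oxidation and PPAR-alpha targets, 1 rose and 13 fell (30.2%, beside 21.7% of all tested genes; median -0.19; 3 and 26 with the block), among them Ppara, Cpt1a, Hadha (-0.51), Etfdh (-0.70) and Ehhadh (-0.61).

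Cholesterol synthesis and uptake genes had no riser and 5 fallers among 32 (15.6%, beside 21.7% of all tested genes; 2 and 8 with the block), with a median of -0.01 whose sign turned in 17 alternatives. Stard4 led them and was at 5.11, 4.64 and 6.60 FPKM in NCD+CUR mice, against 8.47, 6.84 and 23.6 FPKM in NCD mice, and at 4.03, 3.71 and 3.39 FPKM in HFHSD+CUR mice, against 10.7, 9.95 and 18 FPKM in HFHSD mice. The sides did not overlap, and the highest of all 12 mice was NCD mouse 3. The efflux pump gene Abca1 (-0.44; trend-removed -0.27) fell as well. Of 28 tested bile acid and FXR genes, none rose and 11 fell (39.3%, beside 21.7% of all tested genes), with a median of -0.24, and the block gave 3 rises and 17 falls. Cyp7a1, the rate-limiting enzyme of bile acid synthesis, was at 16.5, 6.35 and 44.4 FPKM in NCD+CUR mice, against 16.7, 4.83 and 58.4 FPKM in NCD mice, and at 37.3, 58.6 and 54.2 FPKM in HFHSD+CUR mice, against 53.3, 61.2 and 70.6 FPKM in HFHSD mice. It did not pass (log2 fold change -0.16 ± 0.61, adjusted p = 0.860). CUR mice and mice without CUR overlapped in both diets. The nuclear receptor gene Nr5a2 (-0.80), the peroxisomal enzyme gene Acox2 (-0.37) and the sterol carrier gene Scp2 (-0.45) fell.

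The urea cycle and amino acid breakdown list had 2 risers and 22 fallers among 50 tested genes (44.0% lower), with a median of -0.24. Cps1, the entry enzyme of the urea cycle, was at 389, 348 and 293 FPKM in NCD+CUR mice, against 612, 441 and 600.5 FPKM in NCD mice, and at 239, 173 and 202 FPKM in HFHSD+CUR mice, against 453, 342 and 612 FPKM in HFHSD mice. CUR values lay below the values without CUR in each diet (log2 fold change -0.92 ± 0.16 (SE) with an adjusted p of 0.00340). Slc25a13, the aspartate-glutamate carrier that feeds the cycle, was at 44.2, 46.5 and 45 FPKM in NCD+CUR mice, against 60.2, 51.7 and 63.6 FPKM in NCD mice, and at 39.1, 44.7 and 36.6 FPKM in HFHSD+CUR mice, against 58.2, 65.1 and 72.5 FPKM in HFHSD mice (log2 fold change -0.53 ± 0.10 (SE) with an adjusted p of 0.00357). Mut, the methylmalonyl-CoA mutase, fell by 0.74 on the log2 scale. The xenobiotic cytochrome P450 list had no riser and 7 fallers among 31 (median -0.13; 5 and 14 with the block). Without the block the 22.6% that fell were close to the 21.7% of all tested genes. With the block the share of this list that fell was above that over all genes, and the share that rose was below it. Among the 7 fallers were Cyp2c29 (-0.68), Cyp2f2 (-0.51) and Cyp3a13 (-0.34; trend-removed -0.18, adjusted p = 0.126).

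Of 56 tested genes of ER cargo export and translocation, 24 fell (42.9%, beside 21.7% of all tested genes) and 1, Sec61a2 (0.74), rose, with a median of -0.22, and the block gave 4 rises and 32 falls. Sec23a, a coat protein of the vesicles that leave the ER, was at 12.1, 10.9 and 10.8 FPKM in NCD+CUR mice, against 17.6, 14.5 and 17.6 FPKM in NCD mice, and at 9.34, 10.7 and 6.67 FPKM in HFHSD+CUR mice, against 15.7, 17.9 and 18.6 FPKM in HFHSD mice. The sides did not overlap (log2 fold change -0.76 ± 0.12 (SE) with an adjusted p of 0.00313). Mia2, which carries large cargo such as lipoproteins out of the ER, had the largest fall of any gene named here and was at 4.07, 2.52 and 2.94 FPKM in NCD+CUR mice, against 16.4, 4.05 and 24.9 FPKM in NCD mice, and at 3.31, 3.24 and 1.99 FPKM in HFHSD+CUR mice, against 15.1, 16.9 and 25 FPKM in HFHSD mice. NCD mouse 2 lay within the range of the CUR mice, and the log2 fold change was -2.30 ± 0.40 (SE) with an adjusted p of 0.00431. Mia2 and Ctage5 are annotated over the same locus, so the values of each depend on how shared fragments were divided. Of 41 tested N-glycosylation genes, 2 rose and 14 fell (34.1%; median -0.14), among them Alg10b (-1.58), Tusc3 (-0.78) and Man1a (-0.82). Of 35 genes of the unfolded protein response and heat shock, 3 rose (Atf4, Ddit3 and Hsf1) and 13 fell (37.1%; median -0.23; 4 and 22 with the block), among them Atf6 (-0.50; trend-removed -0.31), Dnajb9 (-0.81) and Hsph1 (-0.45).

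Of 50 tested translation control and initiation genes, 2 rose and 16 fell (32%, beside 21.7% of all tested genes; median -0.17), with Eif4ebp2, Eif4g1 (-0.63) and Eif4g2 (-0.52; trend-removed -0.29) in front. Of 82 cytosolic ribosomal protein genes, 61 rose (74.4%, beside 17.7% of all tested genes) and 1, Rpl30, fell, with a median of 0.33. Rps27l was at 376, 383 and 401 FPKM in NCD+CUR mice, against 290.0, 344 and 313 FPKM in NCD mice, and at 444, 409.6 and 517 FPKM in HFHSD+CUR mice, against 322, 315 and 305 FPKM in HFHSD mice. All CUR mice were above all mice without CUR, of which NCD mouse 2 was the highest (log2 fold change 0.42 ± 0.08 (SE) with an adjusted p of 0.00479; trend-removed 0.23). Most ribosomal protein genes have many processed pseudogenes, so their values are uncertain where fragments map to several places. The share depended on the trend described next: once the trends with GC content and length were taken out of each library, 29 rose, 2 fell and the median was 0.11.

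Of 77 mitochondrial ribosomal protein genes, 22 rose (28.6%, beside 17.7% of all tested genes) and 2 fell, with a median of 0.13 that became -0.04, with 18 risers and 8 fallers, once those trends were removed. The block gave 34 rises and 5 falls. Mrpl52 was at 230.4, 225 and 212 FPKM in NCD+CUR mice, against 160.2, 213 and 145 FPKM in NCD mice, and at 210.0, 215 and 218 FPKM in HFHSD+CUR mice, against 145, 151 and 125 FPKM in HFHSD mice (log2 fold change 0.50 ± 0.10 (SE) with an adjusted p of 0.00444; trend-removed -0.02, adjusted p = 0.909), while Mrpl3, also of the large subunit, fell (-0.47). Of 80 nuclear genes of oxidative phosphorylation, 47 rose (58.8%) and 6 fell (7.5%), with a median of 0.25 that became 0.02 with 17 risers and 14 fallers. The risers, such as the complex I subunit genes Ndufa3 (0.52; trend-removed 0.17, adjusted p = 0.104) and Ndufb7 (0.47; trend-removed adjusted p = 0.985), had a median transcript length of 760 bases. The fallers, Atp5a1, Atp5b, Atp5f1, Ndufs1, Sdha and Uqcrc2, had a median of 2288 bases. Sdha, the catalytic subunit of succinate dehydrogenase, was at 108, 102 and 114 FPKM in NCD+CUR mice, against 141, 125 and 164 FPKM in NCD mice, and at 114, 106 and 73.3 FPKM in HFHSD+CUR mice, against 169.5, 165 and 177 FPKM in HFHSD mice. All CUR mice were below all mice without CUR (log2 fold change -0.61 ± 0.12 (SE) with an adjusted p of 0.00453).

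**Figure D3:**
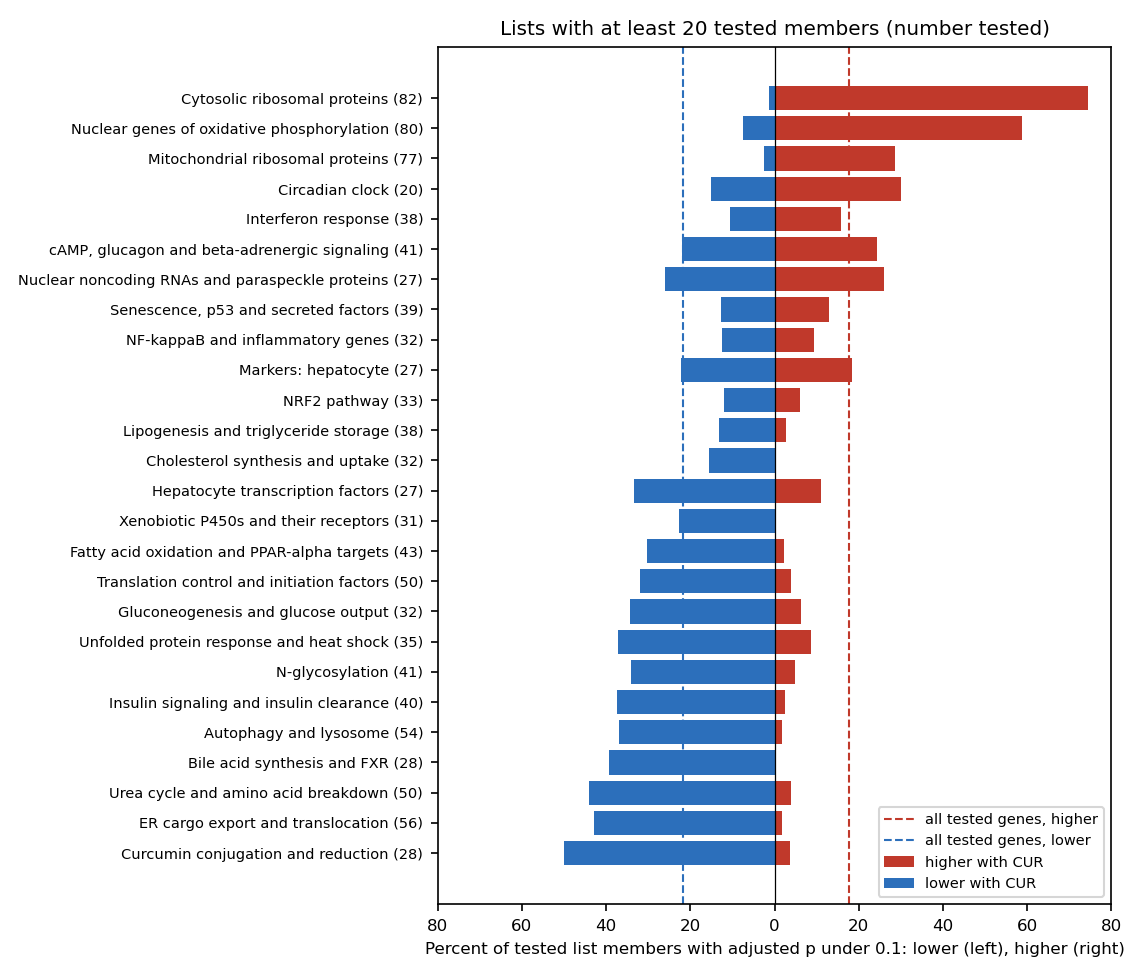
Percent of the tested members of each list that fell (blue, to the left) or rose (red, to the right) with CUR at an adjusted p under 0.1, for lists of at least 20 tested members, with the number tested in parentheses; dashed lines are the shares over all tested genes, 21.7% lower and 17.7% higher. Cytosolic ribosomal proteins and oxidative phosphorylation reach far past the red line, and curcumin conjugation, ER export and the urea cycle past the blue line.

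Transcript length and GC content moved with the calls over all genes. With the longest transcript of each gene in GENCODE, taken among coding transcripts where there are any, for 10077 tested genes, the risen genes had a median length of 2342 bases and a GC content of 53.8%, the fallen genes 3822 bases and 46.7%, and all genes 2905 bases and 50.2%. Genes were cut into 5 bins of equal size by either feature. In the bin of lowest GC content 9.92% rose and 36.6% fell, and in the bin of highest 31.3% rose and 7.04% fell. Of the bin of shortest transcripts 29.4% rose and 4.71% fell, and of the longest 11.8% rose and 34.4% fell. The promoters did not differ in that way, since the 250 bases before the start had a median GC content of 59.2% for risen, 61.6% for fallen and 59.6% for all genes. With each library's trends removed, 1576 genes rose and 1813 fell. Of the 3971 calls that could be followed, 2595 were made again in the same direction and 6 in the other. The shares of the lists stand beside all tested genes and not beside genes of like GC content and length. Whether the trends come from the livers or from the libraries was not tested.

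**Figure D4:**
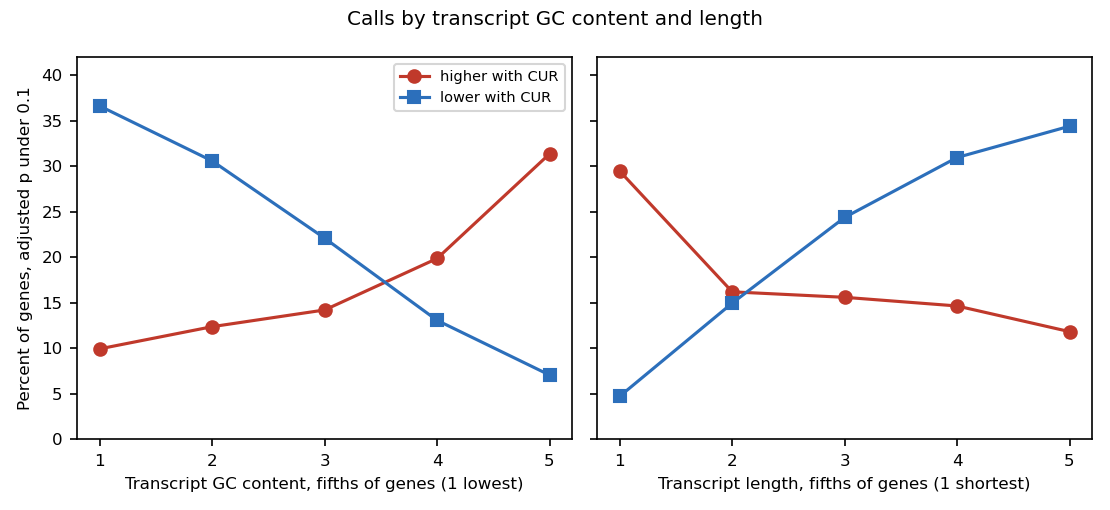
Percent of genes that rose (red) or fell (blue) with CUR at an adjusted p under 0.1 in 5 bins of equal size of the 10077 genes with a GENCODE transcript, by GC content (left) and by length (right). The blue line drops from 36.6% to 7.04% with GC content and climbs from 4.71% to 34.4% with length, and the red line runs the other way.

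**Figure D5:**
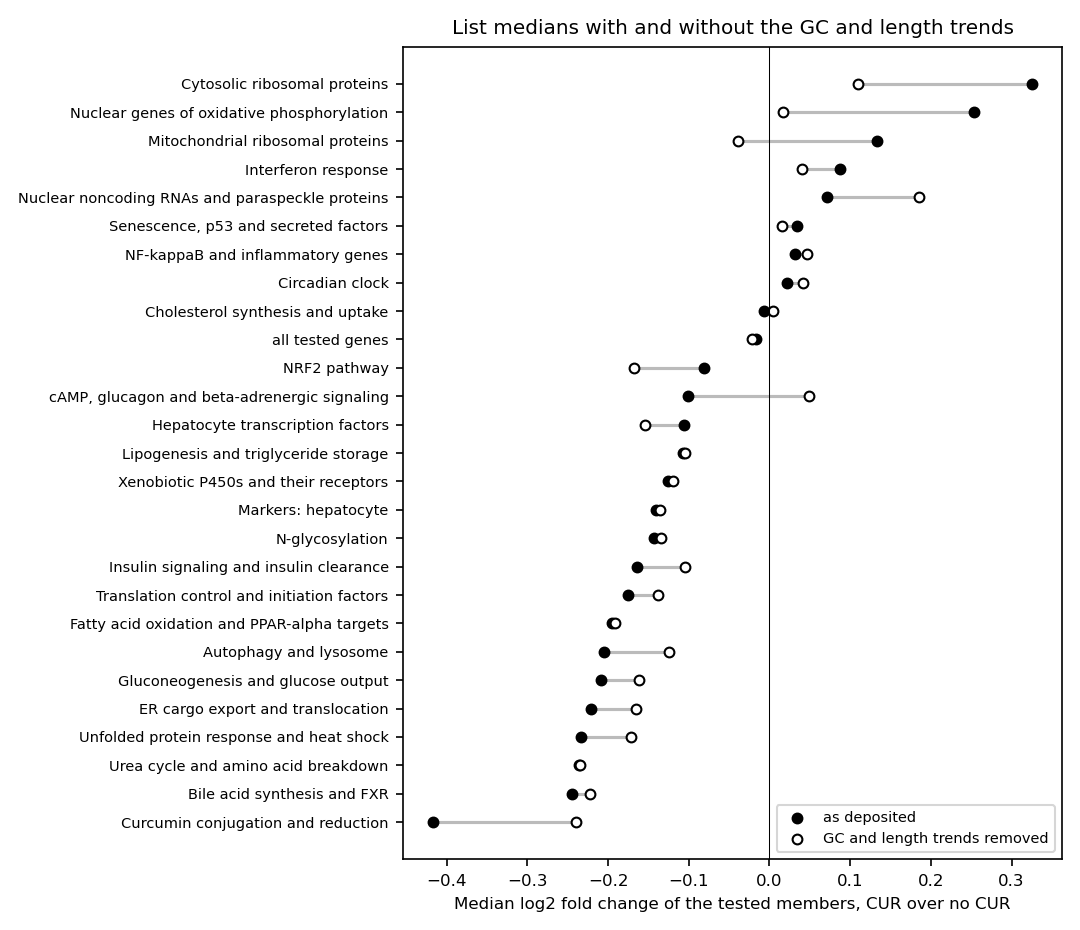
Median log2 fold change (CUR over no CUR, x axis) of the tested members of each list with at least 20 tested members and of all tested genes, as deposited (filled) and after taking the trends with GC content and length out of each library (open). The medians of oxidative phosphorylation (0.25 and 0.02) and ribosomal proteins (0.33 and 0.11) shift most toward 0, those of the mitochondrial ribosome, cAMP signaling and cholesterol synthesis change sign, and those of the urea cycle and fatty acid oxidation hardly shift.

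Several lists had few calls or calls both ways. The list of nuclear noncoding RNAs and paraspeckle proteins had 7 risers, among them Neat1, Malat1, Tardbp (0.55) and Cpsf7 (0.58), and 7 fallers, among them the core paraspeckle protein genes Nono and Pspc1, among 27 tested genes (25.9% each way, beside 17.7% higher and 21.7% lower over all tested genes). Of 54 autophagy and lysosome genes, 1, the transcription factor gene Tfeb, rose and 20 fell (37.04%; median -0.21; 3 and 29 with the block), among them Lamp1 (-0.49), Atg5 (-0.35) and the AMP-activated kinase gene Prkaa2 (-0.66; trend-removed -0.41). Of 39 genes of senescence, p53 and secreted factors, 5 rose, among them the deacetylase gene Sirt6 (0.72), and 5 fell, among them Rbl2 (-0.52) and Ccnd1 (-0.35), against 8 and 7 with the block, and 12.8% each way were below the shares over all genes. Cdkn1a (p21), the arrest gene most used to mark senescence, was at 2.91, 1.97 and 1.45 FPKM in NCD+CUR mice, against 2.47, 1.74 and 1.38 FPKM in NCD mice, and at 1.58, 1.29 and 1.92 FPKM in HFHSD+CUR mice, against 1.22, 1.47 and 1.56 FPKM in HFHSD mice. The sides overlapped in both diets, and the log2 fold change was 0.15 ± 0.18 (SE) with an adjusted p of 0.525. Igf1 was at 155 to 207 FPKM in CUR mice and 143 to 192 FPKM in mice without CUR and did not pass (log2 fold change 0.03).

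Among 20 tested clock genes, 6 rose (30%) and 3 fell (15%), beside 17.7% and 21.7% of all tested genes. Their median was 0.02, with the sign turned in 2 alternatives. The period genes Per1, Per2 and Per3 rose, and Per2 was at 10.9, 11.9 and 11.2 FPKM in NCD+CUR mice, against 8.71, 6.97 and 7.63 FPKM in NCD mice, and at 13.7, 12.5 and 19.9 FPKM in HFHSD+CUR mice, against 9.44, 10.02 and 11.6 FPKM in HFHSD mice (log2 fold change 0.54 ± 0.11 (SE) with an adjusted p of 0.00478). Per3 had 0.54 and the repressor Bhlhe40 -0.48. Of 38 interferon genes, 6 rose (15.8%) and 4 fell (10.5%), both below the shares over all genes, and the block gave 11 and 7. The median was 0.09, with the sign turned in 4 alternatives. Stat2 (0.63) and Oas2 (0.91) were among the risers and Gbp2 (-0.48) among the fallers. Of 27 hepatocyte transcription factor genes, 3 rose (11.1%, beside 17.7% of all tested genes) and 9 fell (33.3%, beside 21.7%), with Zhx2 (-0.68) among the fallers. Of 63 lincRNA genes 39.7% rose and 3.17% fell, and of 9786 protein-coding genes 16.9% rose and 22.4% fell.

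In bulk liver, fewer cells of a type and less RNA per cell cannot be told apart. The 27 hepatocyte markers were called both ways, with 5 that rose (18.5%) and 6 that fell (22.2%), beside 17.7% and 21.7% of all tested genes. Their median was -0.14, and the block gave 7 rises and 11 falls. Of 17 tested endothelial markers 4 rose (23.5%, beside 17.7% of all tested genes) and none fell (median 0.29), and the 20 markers in the table summed to 84.0 to 180.6 FPKM in CUR mice and 66.6 to 156.2 FPKM in mice without CUR. The scavenger receptor gene Stab1 was at 9.24, 9.14 and 7.53 FPKM in NCD+CUR mice, against 6.38, 6.34 and 4.75 FPKM in NCD mice, and at 5.32, 5.06 and 10.5 FPKM in HFHSD+CUR mice, against 2.35, 2.96 and 3.23 FPKM in HFHSD mice (log2 fold change 0.88 ± 0.19 (SE) with an adjusted p of 0.00596). Egfl7 had 0.62 (trend-removed 0.38) and Stab2 0.40. Of 6 tested B cell markers 3 rose, among them Cd79b (0.60) and Mzb1 (1.19), with means of 2.49 and 1.39 FPKM. Of 6 cholangiocyte markers 1 rose (3 with the block), of 4 neutrophil markers 1 (Csf3r, 0.72), and none fell. Without 1 mouse, Cd79b failed in 7 of 12 fits (adjusted p up to 0.178), Csf3r in 5 (up to 0.128) and Mzb1 in 1, without HFHSD mouse 2 (0.107). The trend-removed adjusted p was 0.186 for Cd79b and 0.148 for Mzb1. The summed B cell markers were 94.1 to 195.6 FPKM in CUR mice and 73.4 to 227.8 FPKM in mice without CUR, the cholangiocyte markers 62.3 to 147.4 FPKM in CUR mice and 45.7 to 205.3 FPKM in mice without CUR, and the neutrophil markers 14.5 to 122.7 FPKM in CUR mice and 10.9 to 48.0 FPKM in mice without CUR. None of the tested markers of Kupffer cells and macrophages (13), stellate cells and fibroblasts (14) or T and NK cells (5) passed, and their sums overlapped between CUR mice and mice without CUR. With the block 3, 3 and 2 of them did. The macrophage markers Emr1 (-0.53) and Clec4f (0.31) then had adjusted p of 0.0157 and 0.0943. The stellate cell markers Des (0.35) and Pdgfrb (0.42) had 0.0687 and 0.0327, and the lymphocyte markers Cd2 (0.60) and Ccl5 (0.43) had 0.0520 and 0.0340. Of 6 erythroid markers 1, Alas2 (-0.44), fell, and the sums were 160.8 to 360.7 FPKM in CUR mice and 183.0 to 312.0 FPKM in mice without CUR. No marker in the table was at 0 in all 12 mice. The part of these cells in the results was not tested. None of 10 immediate early genes passed (median 0.08), and with the block 2 did, among them Ier2 (0.23, adjusted p = 0.0605). None of 4 RNAs without a poly(A) tail passed, though their median was 2.78, and with the block Rpph1 (4.14), the RNA of ribonuclease P, did (adjusted p = 0.0288).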

How the data were processed

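Liver RNA of 12 mice was sequenced. The authors aligned reads to mm10 with TopHat2 2.0.13 and deposited 1 FPKM value per gene and library from Cuffdiff 2.2.1, tools and build as in the submitters' processing notes. Depth per gene is therefore unknown. The authors' columns of fold changes, p-values and q-values hold their own comparisons and were not used, and no column lacked a sample.

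FPKM + 0.1 was taken to log2 for 10545 of 23997 genes (mean 1 FPKM or more) and fitted in limma 3.58.1 (R 4.3.3, statmod 1.5.0; empirical Bayes with trend and robust) as diet plus CUR over all 12 libraries, with 9 residual degrees of freedom. P-values were adjusted by Benjamini-Hochberg over all tested genes. The difference between diets came from a model of the 4 groups. The script was tested on simulated data. The replicate number, a block within each diet, left 5 degrees of freedom. Deviations of mice with the same number correlated at 0.339, 0.300 and 0.527 on NCD and 0.156, 0.350 and 0.178 on HFHSD, all over 0.1, so the numbers were taken to pair the mice. Mice of different numbers correlated at -0.33 to 0.0716 on NCD and at -0.194 to 0.0194 on HFHSD. Both mice numbered 3 on NCD were the 107-week-old ones, so number and age cannot be told apart for them. The pairing rests on the data, since the labels do not explain the numbers.

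GC content and length came from GENCODE release 21 for mouse, for 95.6% of tested genes, and were removed by loess with a span of 0.4. Promoters are RefSeq sequences. Named genes were the 12 largest rises and falls without overlap in either diet (mean 5 FPKM or more), up to 3 members of each list with the smallest p, a fixed set of genes, the 4 smallest p-values of the difference and the genes next to the threshold. The members and gene lists were chosen with earlier results of these data known. Alternatives were another pseudocount, filter, scaling, covariate, weighting, moderation or threshold, the block, the removal of trends, and leaving out mice. Some named items are not reported here.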

Additional observations from a re-analysis of the deposited data

Results flagged for a closer look

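In 20 of 278 sets of 6 mice, the highest or lowest mouse lay farther from the others than Dixon's 95% limit allows. Chance flags about 1 in 20 sets where the sets are independent and each comes from 1 uniform group. These sets mix both diets and reuse the same 12 mice, so the count cannot be read against that rate. Among the CUR mice, HFHSD+CUR mouse 3 stood apart in 8 of the sets. It was low in Prkar2a (1.903 FPKM, others 3.215 to 4.237), Eno1 (29.81 FPKM, others 77.21 to 114.6), Rab7 (17.44 FPKM, others 39.36 to 57.17) and Sdha (73.27 FPKM, others 102.1 to 114.2). It was high in Cyp2j9 (20.91 FPKM, others 12.3 to 14.95), Cpsf7 (18.59 FPKM, others 14.09 to 15.59), S100a8, a neutrophil gene (56.4 FPKM, others 5.335 to 10.2), and in the number of genes of at least 1 FPKM (10721, others 10424 to 10533). NCD+CUR mouse 1 was high in Cyp3a13 (87.1 FPKM) and low in Cd3g (0.6569 FPKM) and Pck1 (520.9 FPKM). NCD+CUR mouse 3 was high in Fasn (111.6 FPKM) and HFHSD+CUR mouse 1 in Ugt2b35 (53.01 FPKM).

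Among the mice without CUR, NCD mouse 2 stood apart in 5 sets. It was low in Mia2 (4.054 FPKM, others 15.06 to 24.98), Rbl2 (5.29 FPKM), Mrpl3 (10.34 FPKM) and Rmnd1 (5.789 FPKM) and high in the cholangiocyte keratin Krt19 (2.805 FPKM, others 0.4615 to 0.8611). NCD mouse 3 was high in Rn45s (1461 FPKM) and HFHSD mouse 1 in Keap1 (23.57 FPKM). Array weights were lowest for HFHSD+CUR mouse 3 (0.355) and NCD mouse 2 (0.474), and with them 2309 genes rose and 2652 fell.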

How the results depend on the processing

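Over 38 alternatives the counts of risen and fallen genes stayed within 1.5 times of 1863 and 2291, other than with a mean of 5 FPKM or more (1172 rose, of 6474 tested), without the mice numbered 3 on HFHSD (1232 rose and 1394 fell), without the 2 deepest libraries (1220 and 1415) and without the 2 CUR libraries highest in Rn45s (982 and 1163). The replicate block gave 2569 rises and 3013 falls, and leaving out 1 mouse gave 1492 to 2284 and 1780 to 2715. The difference between the diets passed for 0 genes, for 0 to 1 when a mouse was left out (1 without HFHSD mouse 2), for 1 without the mice numbered 2 on HFHSD and for 2 without the CUR libraries highest in Rn45s. Of 103 named genes that rose or fell and are reported here, 83 did so in every alternative that tested them and 98 without each mouse. The other 20 lost the call in at least 1. Not every alternative tested all 103. With a mean of 5 FPKM or more, 85 were tested and kept the call, and genes without a GENCODE transcript had no trend-removed value. With the block, among named genes, the call changed for those given in the text only.

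The sign changed 46 times, in Mrpl52 and Ndufb7 among called genes and otherwise in genes that did not pass. With GC and length trends removed, alone or with the block, log2 fold changes were -0.0452 for S100a8, -0.0462 for Ier2, -0.0155 for Mrpl52, -0.00226 for Ndufb7, 0.0967 for Insr, 0.0481 for Cyp7a1 and -0.0185 for Bcdin3d. With mapped reads as a covariate they were 0.00993 for Insr, 0.00782 for Pck1, 0.0985 for G6pc, 0.26 for Cyp7a1, 0.0449 for Fasn and -0.0247 for Igf1, and without the deepest libraries 0.0125 for Insr, 0.0331 for Pck1, 0.14 for G6pc, 0.34 for Cyp7a1, 0.15 for Fasn and -0.0264 for Igf1. S100a8 was -0.13 with mapped reads and the block and -0.12 without the mice numbered 3 on HFHSD. Without the CUR libraries highest in Rn45s, S100a8 was -0.33, Ier3 -0.0667 and Bcdin3d -0.0689. Pck1 was 0.10 with array weights, and Igf1 -0.001996 without the mice numbered 3 on NCD. Leaving out 1 mouse gave -0.27 to 0.55 for S100a8, -0.22 to 0.0134 for Nqo1, -0.23 to 0.0693 for Hmox1, -0.18 to 0.0614 for Pck1, -0.50 to 0.00806 for G6pc, -0.58 to 0.22 for Cyp7a1, -0.42 to 0.00411 for Fasn and -0.0278 to 0.0775 for Igf1. The cause of these changes was not tested. Fragments per gene are unknown, so the precision of low genes could not be set from depth.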
